A study of Mus musculus with 16 samples.

Results

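The FGF receptors Fgfr1, Fgfr2, Fgfr3 and Fgfr4 and the receptor adaptors Frs2 and Frs3 were followed in sorted cells labelled as undifferentiated spermatogonia. Such spermatogonia are dividing germ cells of the testis among which the spermatogenic stem cells are found. The members were chosen by symbol, as the 4 receptor genes and 2 adaptor genes that stand upstream of the feedback inhibitor Spry4. All 6 were among the 16383 genes listed, and all 6 were among the 12907 genes tested, which had at least 1 FPKM in at least 4 libraries. FPKM is the number of sequenced fragments per kilobase of transcript, scaled to library size, so levels of different genes can be set beside each other per length.

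Cells were sorted from adult mice 10 days after injection of busulfan, an alkylating agent that depletes germ cells, given to all groups at 10 mg/kg. From day 3 the mice were injected daily for 7 days with 2.5 mg/kg of PD0325901, which blocks MEK1 and MEK2, the kinases directly above ERK, or with a vehicle of 10% DMSO. The 4 groups, each of 4 polyA RNA libraries, were Spry4 germline knockout with PD0325901, Spry4 germline knockout with vehicle, wild type with PD0325901, and wild type with vehicle. No group without busulfan was analysed here. The knockout libraries carry GCRT_Spry4KO in their column names and the wild-type libraries carry Spry4ff. What GCRT names stands in the knockout alone, so its effect and that of losing Spry4 cannot be told apart. The sources used here give neither the sorting markers nor the deleted stretch of Spry4. Each column name also carries an SP number of its own, which the labels do not explain. The labels do not say that replicate libraries stem from separate animals, and p-values then measure only the spread between these libraries, which may be technical.

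FGF receptors are single-pass membrane kinases that bind FGF ligands together with heparan sulfate, dimerise and phosphorylate themselves and their partners. FRS2 and FRS3 are membrane-anchored adaptors that dock on the inner side of the receptor, become phosphorylated on tyrosine, and recruit GRB2 and the phosphatase SHP2, which leads to RAS and ERK. Sprouty proteins, SPRY4 among them, are transcribed in response to ERK and dampen the same route. In the testis FGF2 is used with GDNF to keep mouse spermatogonial stem cells growing in culture. Alternative splicing of the third immunoglobulin-like domain of FGFR1, FGFR2 and FGFR3 sets which ligands they bind, and values per gene do not separate these forms.

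The promoters of Fgfr2, Frs2 and Frs3 are shown because these genes gave the widest spread between libraries, the narrowest spread, and the opposite pattern to Frs2, as described further on. Each is the 250 bases before a RefSeq transcription start on build GRCm38.p6, read 5′ to 3′ on the gene's strand. The Fgfr2 and Frs3 windows lie inside the annotated gene spans given below, so other starts of these genes are not covered. Capitals mark GC boxes (GGGCGG, or CCGCCC where the match is on the other strand) and the ETS motif CCGGAAGT. The windows are chr7:130266809-130267058 on the minus strand for Fgfr2, chr10:117148475-117148724 on the minus strand for Frs2, and chr17:47694957-47695206 on the plus strand for Frs3.
Fgfr2: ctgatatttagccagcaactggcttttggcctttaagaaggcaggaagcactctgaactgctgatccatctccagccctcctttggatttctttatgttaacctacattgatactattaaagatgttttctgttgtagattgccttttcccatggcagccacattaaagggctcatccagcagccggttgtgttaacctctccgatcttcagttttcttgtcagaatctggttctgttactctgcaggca
Frs2: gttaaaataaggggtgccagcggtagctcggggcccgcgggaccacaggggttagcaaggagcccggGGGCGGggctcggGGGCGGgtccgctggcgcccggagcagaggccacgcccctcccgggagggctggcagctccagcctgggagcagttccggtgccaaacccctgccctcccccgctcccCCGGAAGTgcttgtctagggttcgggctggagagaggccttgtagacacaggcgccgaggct
Frs3: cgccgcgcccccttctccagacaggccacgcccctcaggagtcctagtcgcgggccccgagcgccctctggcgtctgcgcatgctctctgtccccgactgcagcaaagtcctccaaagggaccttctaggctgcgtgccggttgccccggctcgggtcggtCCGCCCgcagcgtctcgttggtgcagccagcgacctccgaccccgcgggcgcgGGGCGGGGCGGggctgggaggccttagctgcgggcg

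The Fgfr2 window had 44% G and C and 2 CpG dinucleotides, and held no GC box or ETS motif on either strand. The Frs2 window had 71.6% G and C, 19 CpG dinucleotides, 2 GC boxes and 1 ETS motif. The Frs3 window had 74% G and C, 30 CpG dinucleotides and 3 GC boxes, 2 of which share 1 base. Over the 32851 RefSeq windows of this length the median was 52.4% G and C, 32.7% held a GC box and 2.88% held the ETS motif. Promoters were matched for 5 of the 6 members. Fgfr4 (64% G and C, chr13:55152568-55152817, plus strand) held 2 GC boxes, and the 2 windows of Fgfr3 held 3 and 2. None of the 6 windows held the TATA box TATAAA or a CArG box, the motif of serum response factor, which 12.4% and 1.47% of all windows held. These matches describe letters and do not show that a factor binds.

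Fgfr1 (ENSMUSG00000031565) lies on chromosome 8, 25513654 to 25575718, plus strand, in GRCm38 with the GENCODE M21 annotation. Fgfr2 (ENSMUSG00000030849) is annotated on chromosome 7 from 130162451 to 133123350, minus strand. Fgfr3 (ENSMUSG00000054252) lies on chromosome 5, 33721674 to 33737068, plus strand. Fgfr4 (ENSMUSG00000005320) lies on chromosome 13, 55152640 to 55168759, plus strand. Frs2 (ENSMUSG00000020170) spans 117069427 to 117148534 of chromosome 10, minus strand. Frs3 (ENSMUSG00000023266) spans 47689030 to 47704286 of chromosome 17, plus strand. For Frs3, 509 exon bases (16.3%) overlap the antisense gene Frs3os and 69 bases (2.21%) overlap Tomm6os. For Fgfr3, 998 exon bases (13.9%) overlap the opposite-strand transcript G630022F23Rik. Fgfr2 shares 314 exon bases (3.04%) with Ctbp2 on its own strand. The library kit keeps strand, but the sources used here do not say whether the counting used strand, so reads in those stretches could come from either gene.

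Fgfr1 was the most abundant of the 6 transcripts and Frs2 the steadiest. Mean levels over the 16 libraries were 24.8 FPKM for Fgfr1, 11.5 FPKM for Frs2, 3.88 FPKM for Frs3, 3.73 FPKM for Fgfr2, 2.37 FPKM for Fgfr4 and 1.51 FPKM for Fgfr3. Fgfr1 exceeded Frs2 in 16 of 16 libraries, and Frs2 exceeded Frs3 in 16 of 16. Frs3 exceeded Fgfr2 in only 8 of 16 libraries and Fgfr2 exceeded Fgfr4 in 10 of 16, so these neighbours did not separate beyond the spread of the libraries. Fgfr4 exceeded Fgfr3 in 13 of 16. Fgfr1 made up 73.7% to 78.7% of the summed receptor FPKM in every library, with Fgfr2 at 4.98% to 16.7%, Fgfr4 at 3.53% to 15.6% and Fgfr3 at 2.86% to 10.0%. The Fgfr1 share averaged 76.7% ± 0.676 in knockouts with PD0325901, 76.7% ± 2.12 in knockouts with vehicle, 76.2% ± 2.15 in wild type with PD0325901 and 77.3% ± 0.643 in wild type with vehicle (SD, n = 4 each). Frs2 made up 68.6% to 79.8% of the summed adaptor FPKM.

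**Figure D1:**
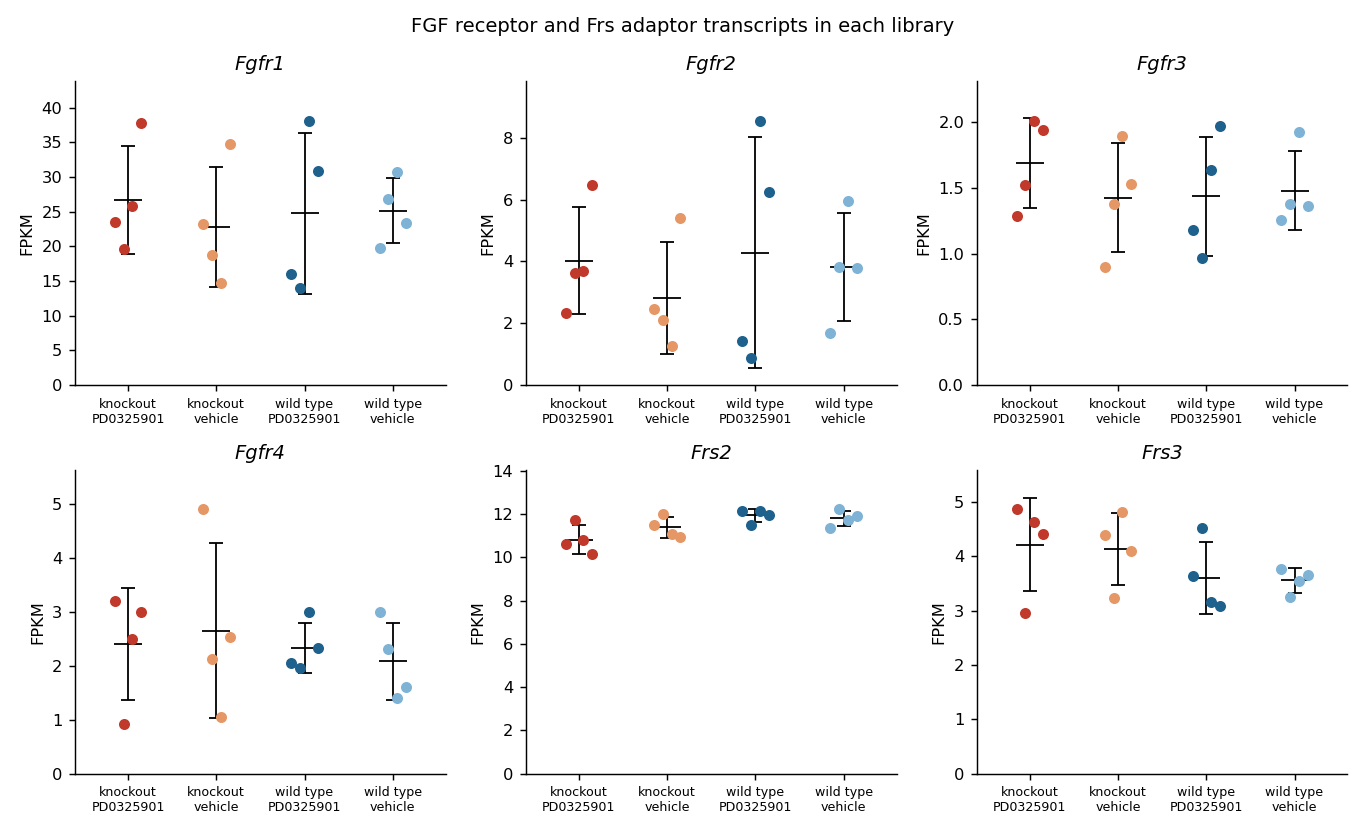
FPKM of the 6 members in each library (points), by group, with the group mean and SD (bars, n = 4). Fgfr1 and Fgfr2 spread widely within groups, with their lowest and highest libraries both in wild type with PD0325901, while Frs2 stays between 10.1 and 12.2 FPKM.

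Among receptor tyrosine kinases Fgfr1 stood at position 7 by mean level. Of 58 such genes in a list drawn up for this family, 49 were listed and 39 were tested. The highest were Pdgfrb at 89.2 FPKM, the PDGF receptor of mural and smooth muscle cells, Ret at 74.3 FPKM, the signalling receptor for GDNF in spermatogonial stem cells, and Ptk7 at 46.4 FPKM, a kinase-inactive receptor. Fgfr1 was higher than its neighbour Ryk (28.5 FPKM), a Wnt receptor, in 5 of 16 libraries, and higher than Mertk (22.9 FPKM), a receptor for GAS6, in 12 of 16. Fgfr2 stood at position 22 between the neurotrophin receptor Ntrk2 (4.20 FPKM) and the insulin receptor Insr (3.58 FPKM). Fgfr4 stood at position 27 between Kit (2.47 FPKM), a marker of differentiating spermatogonia, and Met (1.95 FPKM). Fgfr3 stood at position 32, just above Flt1 (1.34 FPKM), a VEGF receptor. The lower 3 FGF receptors exceeded each of these neighbours in 7 to 10 of 16 libraries, so their positions in the order are not firm.

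**Figure D2:**
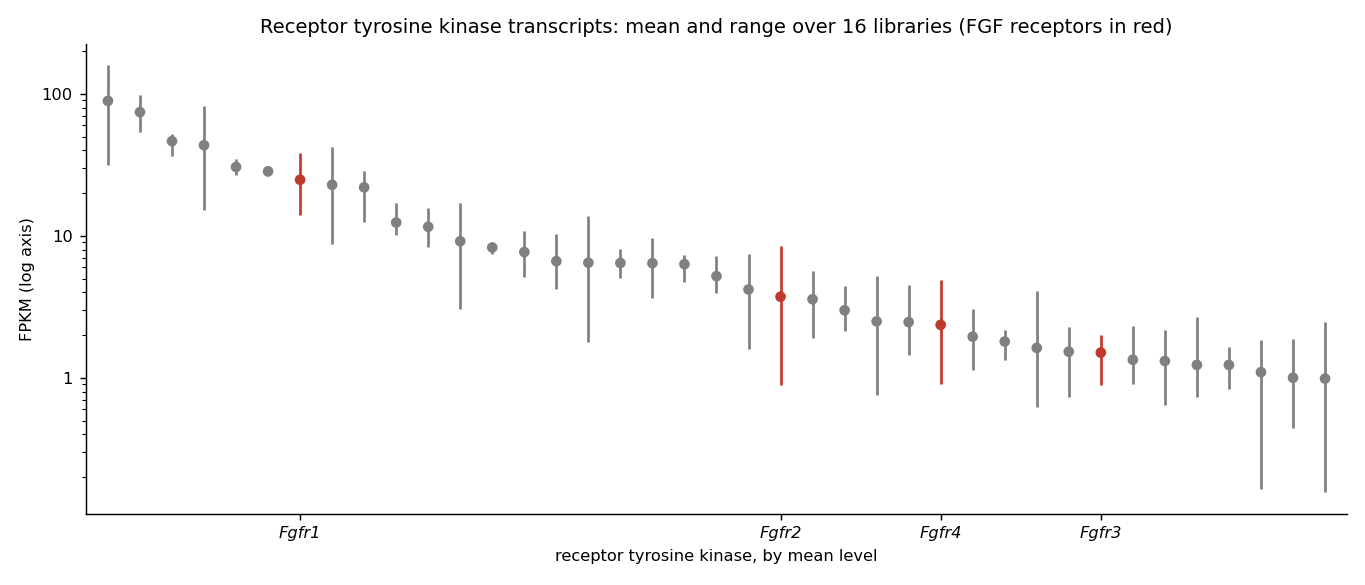
Mean FPKM (points) and range over 16 libraries (lines) of the 39 tested receptor tyrosine kinases, on a log axis and in order of mean level, with the FGF receptors named and in red. Fgfr1 stands at position 7 with 24.8 FPKM, and Fgfr2 has one of the longer ranges, 0.887 to 8.55 FPKM.

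The libraries hold between 12257 and 12805 genes at 1 FPKM or more. Divisors recovered from the whole-read steps of low FPKM values ran from 23359800 to 36613400 reads, the smallest that fit, since any whole multiple would fit too. On that scale Fgfr1 rested on at least 3990 reads per library, Frs2 on 2442, Fgfr2 on 264, Fgfr3 on 183 and Fgfr4 on 78. Counting error is therefore small for Fgfr1 and Frs2 and larger for Fgfr4. Markers of undifferentiated spermatogonia, such as Zbtb16 and Gfra1, were present in every library, with the 15 listed markers summing to 418 to 622 FPKM. Smooth muscle markers were present too, 7 of them summing to 1152 to 11893 FPKM, as described further on. The levels given here are those of the sorted cells as a whole. One library, the third vehicle-treated knockout, stood apart with spermatid transcripts summing to 2869 FPKM, against at most 135 FPKM in any library outside the vehicle-treated knockouts. Spry4 itself averaged 11.01 ± 3.13 FPKM in knockouts against 22.1 ± 1.66 FPKM in wild type under vehicle (SD, n = 4 each), 49.9% of wild type, with no overlap (two-sided exact permutation p = 0.0286, the smallest that 4 against 4 allows). Under PD0325901 it averaged 12.9 ± 4.71 FPKM in knockouts against 21.5 ± 4.89 FPKM in wild type, 59.98%, and the groups overlapped (exact permutation p = 0.0571). These values are per gene, so they do not show the deleted stretch.

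No member passed the test in any of 7 comparisons, and neither did any other gene. The share of the 12907 tested genes called by limma at an adjusted p under 0.05 was 0% for knockout minus wild type under PD0325901, 0% under vehicle and 0% averaged over treatments. It was also 0% for PD0325901 minus vehicle in knockouts, in wild type and averaged over genotypes, and 0% for the interaction of genotype and inhibitor. At an unadjusted p under 0.05 limma listed 605, 251 and 561 genes in the 3 genotype comparisons, 382, 115 and 238 in the 3 inhibitor comparisons and 1.71% of genes for the interaction. A limma voom fit to the recovered reads of the 12467 tested genes with an annotated length also called 0 genes in each comparison, with 669, 230, 582, 401, 118 and 250 genes, and 1.71% for the interaction, at an unadjusted p under 0.05 in the same order. Of the members only Frs2 was at an unadjusted p under 0.05, in 2 of the 7 comparisons. Since 0% of all genes were called, the absence of calls says little about the members, and the intervals of the differences are given instead. Differences were computed from log2(FPKM + 0.5), and this pseudocount shrinks those of genes near 1 FPKM.

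Fgfr1, the receptor that makes up most FGF receptor transcript here, was at 23.6, 19.7, 25.8 and 37.7 FPKM in knockouts with PD0325901 and at 23.2, 18.7, 14.7 and 34.7 FPKM in knockouts with vehicle. In wild type it was at 15.98, 14.02, 38.1 and 30.9 FPKM with PD0325901 and at 19.7, 26.8, 30.7 and 23.4 FPKM with vehicle. Every pair of groups overlapped, and the lowest and highest of all 16 values were both in wild type with PD0325901. Knockout minus wild type, averaged over treatments, was −1.7e-05 on the log2 scale (SE 0.23, 95% interval −0.49 to 0.49, adjusted p = 0.99999 by limma with Benjamini-Hochberg adjustment). Averaged over genotypes, PD0325901 minus vehicle was 0.06 (SE 0.23, 95% interval −0.42 to 0.55). These intervals leave room for a change of up to 0.49 either way with the knockout, so the data do not show that Fgfr1 stayed the same.

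Fgfr2, the receptor with epithelial and mesenchymal splice forms, was at 2.34, 3.61, 3.69 and 6.47 FPKM in knockouts with PD0325901 and at 2.47, 2.11, 1.28 and 5.41 FPKM in knockouts with vehicle. Wild-type libraries had 1.44, 0.887, 8.55 and 6.25 FPKM with PD0325901 and 1.68, 3.81, 5.96 and 3.77 FPKM with vehicle. Within wild type with PD0325901 the libraries fell into a low pair, numbered 445 and 446 in the column names, and a high pair, numbered 452 and 454, and every pair of groups overlapped. The same pairs were low and high for Fgfr1, and they stand in different sets of library numbers (440 to 447 and 448 to 455). The cut between these sets was made here, and no label names them as batches. In this group the split and the set cannot be told apart. The highest library had 9.64 times the lowest, against 2.72 times for Fgfr1, 5.36 times for Fgfr4, 2.24 times for Fgfr3, 1.64 times for Frs3 and 1.21 times for Frs2. Averaged over treatments, knockout minus wild type was −0.08 (SE 0.40, 95% interval −0.93 to 0.77), and averaged over genotypes PD0325901 minus vehicle was 0.18 (SE 0.40, 95% interval −0.68 to 1.03). The interaction was 0.68 (SE 0.80, 95% interval −1.02 to 2.39). It was 0.22 without the second wild-type library with PD0325901 and 1.13 without the third.

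Fgfr1 and Fgfr2 varied together over the 16 libraries, and both varied with smooth muscle transcripts. Pearson's r between Fgfr1 and Fgfr2 was 0.95 and Spearman's rho 0.95 (permutation p = 1e-05 for each, the smallest that 100000 permutations give, adjusted p = 0.0001 over 80 relations). Peritubular myoid cells are the contractile cells that wrap the seminiferous tubule, and 7 of 7 of their markers (Acta2, Myh11, Tagln, Des, Cnn1, Myl9 and Tpm2) were listed, none at 0. Their summed level was 3326 to 9740 FPKM in knockouts with PD0325901, 1351 to 7079 FPKM in knockouts with vehicle, 1152 to 11893 FPKM in wild type with PD0325901 and 2472 to 7695 FPKM in wild type with vehicle. With the mean log2 level of this list Fgfr1 had r = 0.97 and rho = 0.97, and Fgfr2 had r = 0.95 and rho = 0.97 (permutation p = 1e-05 and adjusted p = 0.0001 for each). Leaving out the 2 libraries with the most extreme list means gave r = 0.96 for Fgfr1 and 0.93 for Fgfr2. In the 8 libraries numbered 440 to 447 and the 8 numbered 448 to 455, r was 0.99 and 0.97 for Fgfr1 and 0.89 and 0.99 for Fgfr2. The same 2 libraries were lowest and highest for Fgfr1, Fgfr2 and Acta2, which ran from 367 to 5095 FPKM. The part of these cells, or of smooth muscle transcripts within the sorted cells, in the receptor levels was not tested, and in bulk samples fewer cells of a type and less RNA per cell cannot be told apart.

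**Figure D3:**
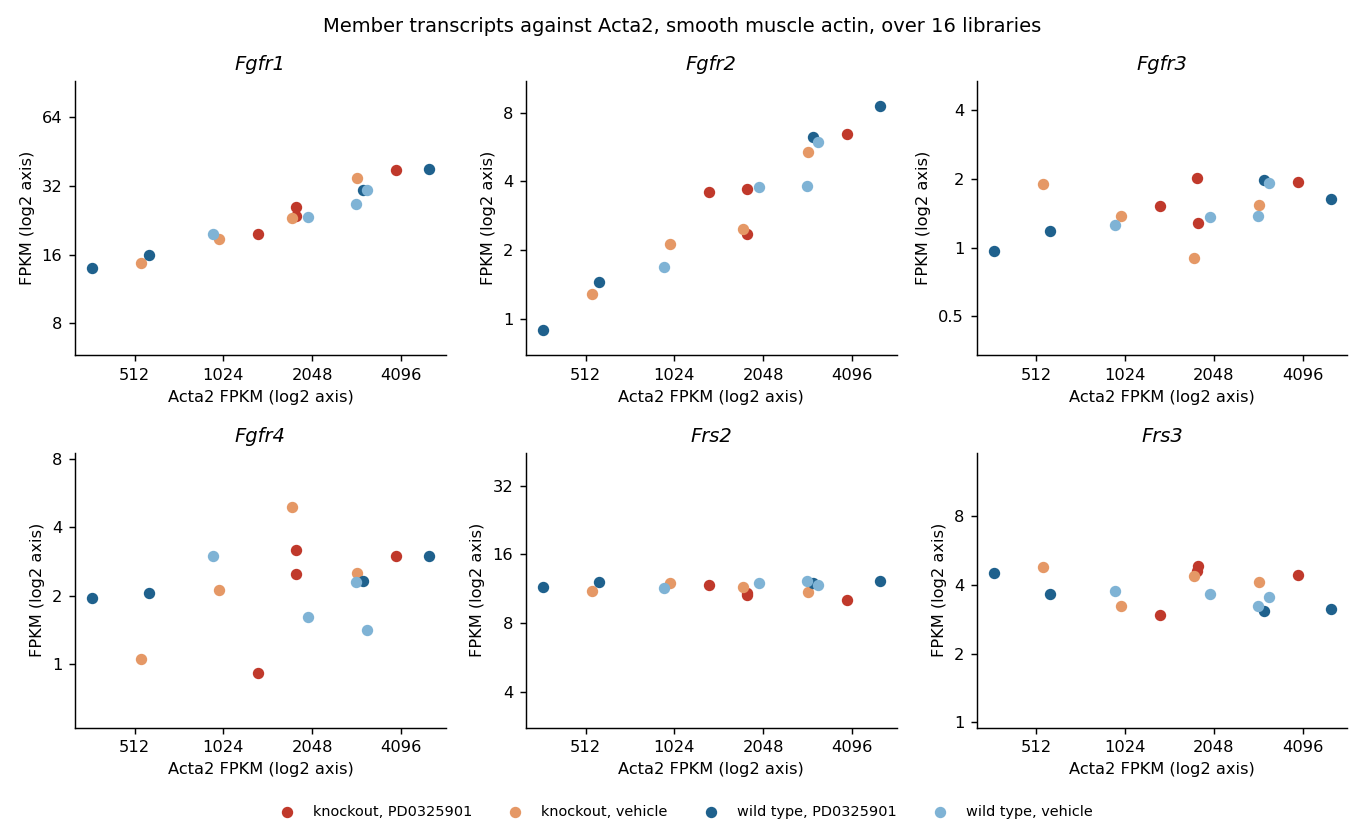
FPKM of each member against FPKM of Acta2, smooth muscle actin, in the 16 libraries, coloured by group, with both axes on a log2 scale and the same span on every y axis. Fgfr1 and Fgfr2 climb with Acta2 over the 16 libraries, while Frs2 stays level. Within knockouts with PD0325901 the climb of Fgfr2 rests on 1 library, with 6.47 FPKM at an Acta2 level of 3937 FPKM.

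The tie with the peritubular list is strong but shared with many genes. Of the tested genes 8.03% (1037) had r above 0.9 with that list, and Fgfr1 stood at position 199 and Fgfr2 at position 394 from the highest, the list's own genes included. The median r of all tested genes was 0.02. Fgfr1 and Fgfr2 had the opposite sign with undifferentiated spermatogonia and pan-germ-cell markers, while the relations with later germline markers were weaker. With differentiating spermatogonia markers r was −0.33 for Fgfr1 and −0.17 for Fgfr2 (permutation test, adjusted p = 0.382 and 0.665). Without the 2 farthest libraries these r were 0.05 and 0.18. With spermatid markers r was −0.41 and −0.43 (permutation test, adjusted p = 0.258 for each). Against the 15 undifferentiated spermatogonia markers r was −0.86 for Fgfr1 and −0.82 for Fgfr2 (rho −0.90 and −0.86, permutation p = 1e-05 and 3e-05, adjusted p = 0.0001 and 0.000267). Against 5 pan-germ-cell markers r was −0.81 and −0.71 (rho −0.76 and −0.68, permutation p = 0.0001 and 0.0022, adjusted p = 0.0008 and 0.0124), but in the libraries numbered 440 to 447 it was only −0.49 and −0.15. On the FPKM scale a straight line on Acta2 accounted for 92.5% of the variance of Fgfr1 and 92.3% of that of Fgfr2, against 0.0448% for Frs2. The lines differed at their low end. Extended to an Acta2 level of 0, below any library measured, the Fgfr1 line had 13.3 FPKM (SE 1.04, n = 16) and the Fgfr2 line 0.418 FPKM (SE 0.302, n = 16).

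With the peritubular list mean as a term in the model the intervals of both receptors became narrower. For Fgfr1 the SE of each simple comparison was 0.08 in place of 0.32. Knockout minus wild type was then −0.08 under PD0325901 and 0.09 under vehicle, and PD0325901 minus vehicle was −0.05 in knockouts and 0.12 in wild type. All 4 of these turned their sign against the values without the term, which were 0.19, −0.19, 0.25 and −0.13. Averaged over treatments the Fgfr1 difference between knockout and wild type was 0.01 (SE 0.06, 95% interval −0.11 to 0.13), and that of Fgfr2 was −0.06 (SE 0.12, 95% interval −0.32 to 0.19). No member passed the test with this term. The only gene that did, in any comparison, was Spry4, at −0.88 in knockout minus wild type averaged over treatments (SE 0.12, adjusted p = 0.0286 by limma).

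**Figure D4:**
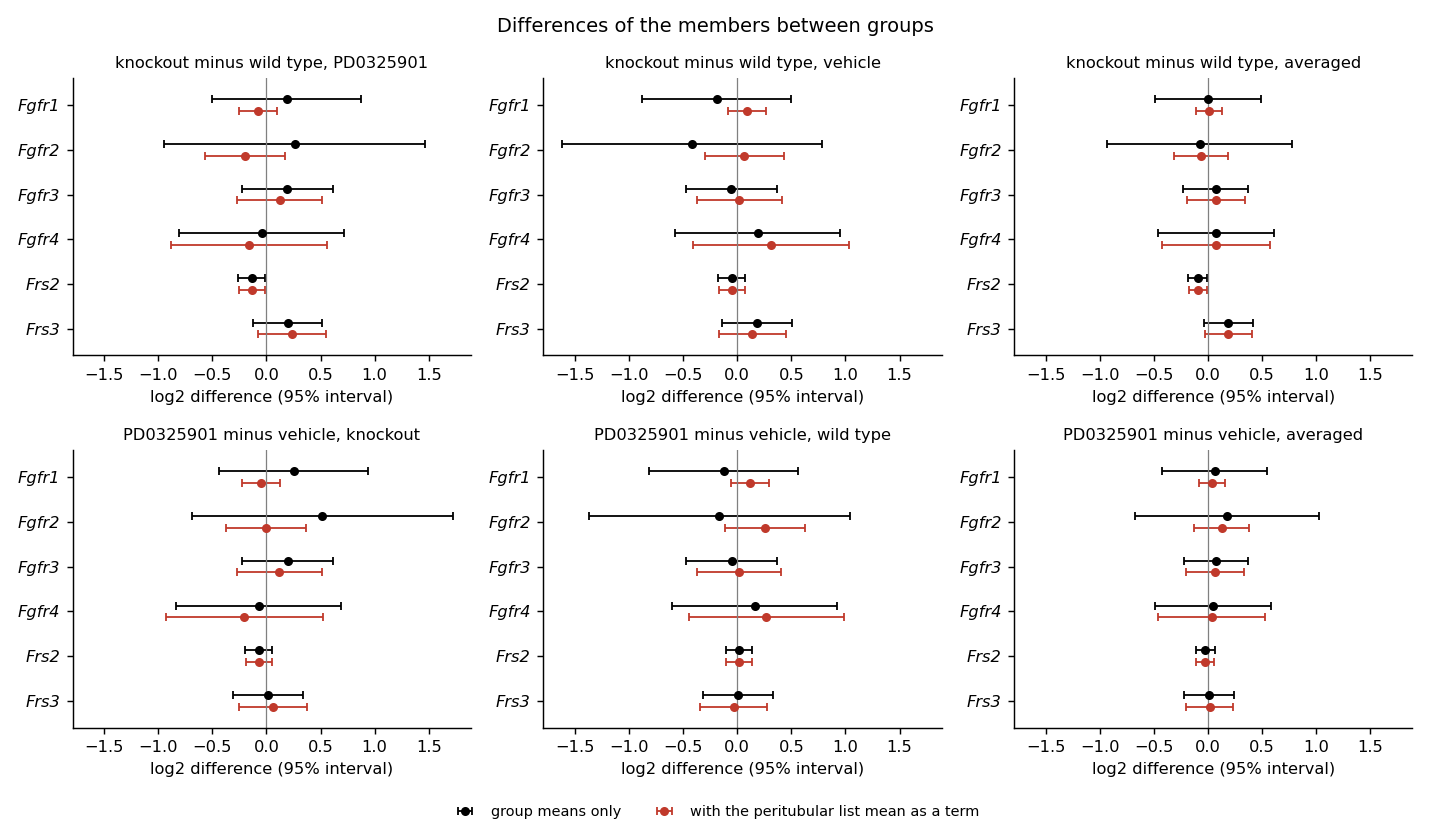
Log2 differences of the 6 members with 95% intervals in 6 comparisons, from a model of group means only (black) and with the peritubular list mean as a term (red). Every interval of the receptors includes 0, and the term narrows the intervals of Fgfr1 and Fgfr2 while leaving those of Frs2 nearly as they were.

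Fgfr3 and Fgfr4 were the receptors with the fewest transcripts. Fgfr3, a receptor known in the testis from undifferentiated human spermatogonia, was at 1.29, 1.52, 2.01 and 1.94 FPKM in knockouts with PD0325901 and at 0.899, 1.38, 1.90 and 1.53 FPKM in knockouts with vehicle. Wild type had 1.18, 0.965, 1.63 and 1.97 FPKM with PD0325901 and 1.25, 1.38, 1.93 and 1.36 FPKM with vehicle. All groups overlapped, and 14 of 16 libraries were at 1 FPKM or more. Knockout minus wild type averaged 0.07 (SE 0.14, 95% interval −0.23 to 0.37) and PD0325901 minus vehicle averaged 0.07 (SE 0.14, 95% interval −0.22 to 0.37). With Fgfr2 it had r = 0.60 and rho = 0.62 (permutation p = 0.0139 and 0.0126, adjusted p = 0.0693), and with Fgfr1 r = 0.50 and rho = 0.57 (permutation p = 0.0502 and 0.0229, adjusted p = 0.179). With the peritubular list Fgfr3 had r = 0.48 (rho 0.54, permutation p = 0.0622, adjusted p = 0.199). Without the third vehicle-treated knockout, the library with spermatid transcripts, these r were 0.78, 0.69 and 0.66. In the libraries numbered 440 to 447 they were 0.59, 0.29 and 0.35, but in those numbered 448 to 455 they were −0.08, −0.06 and −0.11. With the Sertoli cell list it had r = 0.71 and rho = 0.76 (permutation p = 0.00232 and 0.00113, adjusted p = 0.0124), but within the 2 sets of library numbers r was 0.18 and 0.14, so the relation did not hold within sets. Of the 10 Sertoli markers 8 were listed and 5 tested, and Sox9, Cldn11 and Gdnf averaged under 0.5 FPKM.

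Fgfr4, a receptor best known from liver and muscle, was at 3.19, 0.914, 2.49 and 3.00 FPKM in knockouts with PD0325901 and at 4.90, 2.12, 1.06 and 2.53 FPKM in knockouts with vehicle. Wild-type levels were 2.06, 1.95, 2.99 and 2.32 FPKM with PD0325901 and 2.99, 2.31, 1.41 and 1.61 FPKM with vehicle. The spread lay mostly within the knockout groups, which held both the lowest and the highest library, and all groups overlapped. Knockout minus wild type averaged 0.07 (SE 0.25, 95% interval −0.47 to 0.61), and PD0325901 minus vehicle averaged 0.04 (SE 0.25, 95% interval −0.49 to 0.58). With Fgfr1 it had r = 0.38 and rho = 0.49 (permutation p = 0.142 and 0.0532, adjusted p = 0.297), and with Fgfr2 r = 0.13 and rho = 0.29 (permutation p = 0.626 and 0.281, adjusted p = 0.759). In the libraries numbered 440 to 447 these r were 0.39 and −0.13, and in those numbered 448 to 455 they were 0.83 and 0.75. Fgfr4 varied with the fibroblast and matrix list, of which Col1a1, Col1a2, Col3a1 and Pdgfra were tested (r = 0.81, rho = 0.71, permutation p = 0.00017 and 0.00323, adjusted p = 0.00124). Within the sets of library numbers r was 0.79 and 0.84, and without the 2 farthest libraries 0.65. The summed level of that list was 26.6 to 48.7 FPKM in knockouts with PD0325901, 27.8 to 57.6 FPKM in knockouts with vehicle, 31.4 to 49.96 FPKM in wild type with PD0325901 and 25.3 to 36.2 FPKM in wild type with vehicle. Dcn averaged under 0.5 FPKM, Lum was not analysed here, and the part of such cells in Fgfr4 was not tested.

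Frs2, the main adaptor, was at 10.6, 11.7, 10.8 and 10.1 FPKM in knockouts with PD0325901 and at 11.5, 12.0, 11.1 and 10.9 FPKM in knockouts with vehicle. In wild type it was at 12.1, 11.5, 12.2 and 12.0 FPKM with PD0325901 and at 11.4, 12.2, 11.7 and 11.9 FPKM with vehicle. The lowest 3 of all libraries were knockouts with PD0325901, and 1 library of that group overlapped wild type with PD0325901. The coefficient of variation over 16 libraries was 5.36%, lower than that of all but 2.43% of the tested genes, whose median was 15.7%. Knockout minus wild type under PD0325901 was −0.14 (SE 0.06, 95% interval −0.26 to −0.01), with an unadjusted p of 0.0311 and an adjusted p of 0.988 by limma. Averaged over treatments it was −0.09 (SE 0.04, 95% interval −0.18 to −0.01, unadjusted p = 0.0361, adjusted p = 0.998 by limma), and under vehicle −0.05 (SE 0.06). With 4.69% of all tested genes at an unadjusted p under 0.05 in the PD0325901 comparison, 1 of 6 members there is no result about the members. PD0325901 minus vehicle was −0.07 in knockouts and 0.02 in wild type (SE 0.06 each), and their difference, the interaction, was −0.09 (SE 0.08, 95% interval −0.26 to 0.09).

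Frs3, the less abundant adaptor, was at 4.86, 2.96, 4.62 and 4.42 FPKM in knockouts with PD0325901 and at 4.40, 3.23, 4.81 and 4.11 FPKM in knockouts with vehicle. Wild-type libraries had 3.65, 4.52, 3.15 and 3.09 FPKM with PD0325901 and 3.77, 3.24, 3.55 and 3.66 FPKM with vehicle. In knockouts 3 of 4 libraries under vehicle lay above every wild-type library with vehicle, and the second lay just below all 4, so the groups overlapped. Knockout minus wild type was 0.19 under PD0325901, 0.18 under vehicle and 0.19 averaged over treatments (SE 0.11, 95% interval −0.04 to 0.42, unadjusted p = 0.0981, adjusted p = 0.998 by limma). Without the third vehicle-treated knockout, the library with spermatid transcripts, the value under vehicle was 0.11 and the averaged value 0.15. PD0325901 minus vehicle was 0.02 in knockouts and 0.00 in wild type (SE 0.15 each).

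The adaptors ran in opposite directions. Over the 16 libraries Frs2 and Frs3 had r = −0.77 and rho = −0.79 (permutation p = 0.00049 and 0.00039, adjusted p = 0.00302 over 80 relations). Of the log2 variance 53.6% lay between groups for Frs2 and 20.3% for Frs3. The permutations moved libraries across groups, so these p-values do not separate group differences from spread within groups. Within the sets of library numbers r was −0.74 and −0.82, without the 2 farthest libraries −0.72, and without the third vehicle-treated knockout −0.77. In no relation with the 8 marker lists did Frs2 or Frs3 reach an adjusted p under 0.05. The nearest were Frs3 with spermatid markers (r = 0.56, rho = 0.55, permutation p = 0.0147, adjusted p = 0.0693) and Frs3 with endothelial markers (r = 0.57, rho = 0.57, permutation p = 0.0207, adjusted p = 0.0922). Against the log2 divisor of the library, a measure of depth, r was −0.38 for Frs2 and 0.33 for Frs3 (permutation p = 0.145 and 0.211). Whether reads of the overlapping antisense gene Frs3os enter the Frs3 values was not tested.

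**Figure D5:**
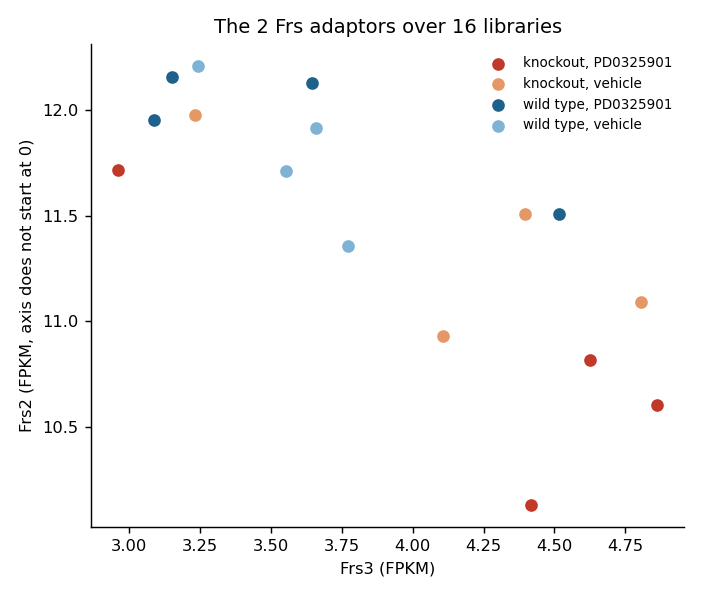
Frs2 FPKM against Frs3 FPKM in the 16 libraries, coloured by group, with neither axis starting at 0. Libraries with more Frs3 have less Frs2, and the 3 lowest Frs2 values are knockouts.

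Of 80 relations computed over the 16 libraries, 15 had an adjusted p under 0.05. They comprised 8 of 48 between a member and a marker list and 2 of 15 between members. Another 5 of 11 were between an FGF or co-receptor gene and the peritubular list. Between a member and the library divisor there were 0 of 6. By Pearson's r over the 16 libraries, the genes most like Fgfr1 were the laminin chain Lamb2, Mpnd and the caveolar protein gene Cavin3, all at 0.99, and those most like Fgfr2 were Slc45a4, Gas6 and Kif1c at 0.98. Fgfr3 was most like the ribosomal protein gene Rplp0 (0.91), Ppp1r14b (0.90) and the predicted gene Gm8730 (0.89). The closest to Fgfr4 were Ntrk2, Os9 and Pla2r1 at 0.90 to 0.91. Frs2 went with the proteasome subunit gene Psmd1 (0.92), the ribosome recycling factor gene Abce1 (0.91) and Ing3 (0.91), and Frs3 with Cpt1c (0.87), Gatd1 (0.83) and Gmip (0.80). After the peritubular list mean was regressed out, Fgfr1 was most like the phosphatase subunit genes Ppp2r1a (0.94) and Ppp2r5b (0.91). Next came the G protein-coupled receptor kinase gene Grk6 (0.91), and Fgfr2 was most like Eif3c (0.87), Tigar (0.86) and Nde1 (0.85). The same step put Fgfr3 beside Sart3 (0.94), Med26 (0.90) and Mfsd2a (0.89), and Fgfr4 beside Grm7 (0.95), Slfn5 (0.94) and Colec11 (0.94). Frs2 stayed with Psmd1 (0.92) and Ing3 (0.92), joined by Cul2 (0.92), and Frs3 with Gatd1 (0.88) and Cpt1c (0.86), joined by Slc9a8 (0.88). These are the highest values among all tested genes and are given as a description.

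Among the FGF genes, 11 of 22 were listed and 5 were tested. Fgf1, a ligand that binds all FGF receptors, averaged 10.1 FPKM, and the intracellular homologous factors Fgf11 and Fgf13, which do not signal through FGF receptors, averaged 2.80 and 1.67 FPKM. Fgf1 had r = 0.98 and rho = 0.97 with the peritubular list (permutation p = 1e-05, adjusted p = 0.0001), and its level was 22.2 FPKM in the third and 2.65 FPKM in the second wild-type library with PD0325901. Fgf2, named after its values were seen, averaged 1.19 FPKM and had r = 0.89 and rho = 0.87 (permutation p = 1e-05 and 4e-05, adjusted p = 0.0001), and Fgf11 had r = 0.79 and rho = 0.82 (permutation p = 0.00039 and 0.0002, adjusted p = 0.0026). Fgf13 had r = −0.04 and rho = −0.13 (permutation p = 0.884 and 0.641, adjusted p = 0.915). None of the 5 tested FGF genes passed the test in any comparison, and the counts that follow include Fgf11 and Fgf13. In knockout minus wild type averaged over treatments 1 was above 0 and 4 below, with a median of −0.11, beside −0.02 for all tested genes. In PD0325901 minus vehicle averaged over genotypes 5 were above 0, with a median of 0.09, beside 0.01 for all tested genes. Of all tested genes 44.1% were above 0 in the averaged genotype comparison and 54.4% in the averaged inhibitor comparison.

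Co-receptors and membrane modulators had 11 of 12 genes listed and 6 tested. The highest were Fgfrl1 (12.98 FPKM), a receptor relative without a kinase domain, Il17rd (9.97 FPKM), the membrane inhibitor also called SEF, and Nrp1 (6.31 FPKM). Fgfrl1 varied with the peritubular list as Fgfr1 did (r = 0.88, rho = 0.89, permutation p = 1e-05, adjusted p = 0.0001), and so did Ncam1, named after its values were seen (r = 0.89, rho = 0.90, permutation p = 1e-05, adjusted p = 0.0001). Il17rd did not (r = −0.04, rho = −0.07, permutation p = 0.886 and 0.797). Averaged over treatments, Il17rd had 0.12 in knockout minus wild type (SE 0.05, adjusted p = 0.998 by limma), and averaged over genotypes −0.14 in PD0325901 minus vehicle (SE 0.05, adjusted p = 0.9999 by limma). The membrane proteins Klb and Kl, which endocrine FGFs need, averaged 0.194 and 0.0801 FPKM and were not tested. Heparan sulfate genes had 31 of 33 listed and 27 tested, led by Sdc4 at 200 FPKM, a syndecan, Hspg2 at 50.04 FPKM, which encodes perlecan, and Gpc4 at 27.1 FPKM, a glypican. None was called, and 13 were above and 14 below 0 in the averaged genotype comparison (median −0.0040). In the averaged inhibitor comparison 17 were above and 10 below 0 (median 0.07). The shares above 0 over all tested genes were 44.1% and 54.4%, in that order.

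Downstream of the receptors, all 27 adaptors and enzymes recruited by FGF receptors or FRS2 were tested, and none was called in any comparison. The highest were the kinase gene Fyn at 36.4 FPKM, the adaptor gene Sh2b1 at 34.9 FPKM and Cks1b, whose product binds FRS2, at 33.2 FPKM. In the averaged genotype comparison 13 were above and 14 below 0, with a median of −0.00014. In the averaged inhibitor comparison 16 were above and 11 below 0 (median 0.02). Over all tested genes 44.1% were above 0 in that genotype comparison and 54.4% in that inhibitor comparison. Those shares are also the base for the counts of the lists that follow. Of 13 feedback inhibitors of receptor signalling 12 were tested, led by the ERK phosphatase gene Dusp6 at 44.7 FPKM, Spry2 at 37.6 FPKM and Dusp5 at 37.5 FPKM. None was called, and 8 were above and 4 below 0 in knockout minus wild type averaged over treatments. Those below 0 include Spry4, the targeted gene, which was the lowest of this list at −0.88. In the same comparison Dusp6 had 0.25 (SE 0.11, unadjusted p = 0.0311, adjusted p = 0.998 by limma). In PD0325901 minus vehicle averaged over genotypes 4 were above and 8 below 0 (median −0.07). All 18 ERK-dependent transcripts were tested, with Fos at 404 FPKM, Egr1 at 121 FPKM and Etv5 at 49.4 FPKM the highest, and none was called. With the knockout 8 were above and 10 below 0 (median −0.04), and with PD0325901 11 were above and 7 below 0 (median 0.07). Spry4 is in this list too, and was again the lowest with the knockout. Etv5, an ETS factor needed for stem cell maintenance in the testis, had 0.29 in knockout minus wild type averaged over treatments (SE 0.09, unadjusted p = 0.00647, adjusted p = 0.998 by limma). In that comparison 4.35% of all tested genes were at an unadjusted p under 0.05. Egr1 had −0.36 in PD0325901 minus vehicle averaged over genotypes (SE 0.14, adjusted p = 0.9999 by limma), and −0.58 in wild type alone (SE 0.20). Etv4, of the same list, had 0.41 in PD0325901 minus vehicle in knockouts and −0.15 in wild type (SE 0.14 each). The 39 tested receptor tyrosine kinases had 23 above and 16 below 0 with the knockout (median 0.04) and 26 above and 13 below 0 with PD0325901 (median 0.06), with none called.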

How the data were processed

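mRNA of sorted cells labelled as spermatogonia was sequenced in 16 libraries, 4 in each of 4 groups. The deposited values are FPKM per gene and library, computed by the authors and matched to samples by the column names in the labels. The builds mm10 and GRCm39 and the tools STAR 2.7.10a, edgeR 4.0.14 and FastQC appear per the submitters' processing notes, which give them no role. The sources used here do not give the read counter, the gene lengths or the use of strand. Symbols matched GENCODE M21 for 15771 of the 16383 listed genes (96.3%).

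Values were taken as log2(FPKM + 0.5), and genes with at least 1 FPKM in at least 4 libraries (12907) were kept. A model of group means was fitted with limma 3.58.1 in R 4.3.3, with a variance trend, over all 16 libraries, and p-values were adjusted by Benjamini-Hochberg over all tested genes, with 0.05 as the threshold. The code was tested on simulated data. Marker lists were scored as the mean log2 value of their tested genes, and relations were tested with 100000 permutations of the libraries, two-sided, in Python 3.11.15 with numpy 2.4.6, scipy 1.17.1 and pandas 2.3.3. Libraries of a group differed beyond sampling noise in all 24 pairs (chi-square of reads per degree of freedom at least 15.998), so none was treated as a repeat deposit of another. That check does not show that they are separate animals. Depth was estimated by finding the smallest divisor for which low FPKM values give whole reads. With it, 92.9% to 94.2% of values worth under 100 reads were whole to within 0.1.

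The members and gene lists were chosen with earlier results of these data known. Genes named are the 6 members, Spry4, the genes most correlated with each member, the 3 highest of each list and the neighbours of each receptor among receptor tyrosine kinases. Others are examples picked after their values were seen. Alternatives were other pseudocounts, no filter on low values, upper-quartile scaling, terms for replicate, library-number set or peritubular list, each library left out, and limma voom on recovered reads, the last chosen after seeing the data.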

Additional observations from a re-analysis of the deposited data

How the results depend on the processing

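No member passed the adjusted threshold in any of the 7 comparisons under any of the 24 alternative settings, where the lowest adjusted p of a member was 0.235. Of 1008 member values under these settings 922 kept their direction and 86 turned it, 67 of these when 1 library was left out. No gene was called with the replicate block (0 in every comparison), with the library-number set as a term, with either other pseudocount, without the filter, with upper-quartile scaling or without any 1 library. Of 24 same-numbered pairs 10 had a correlation over 0.1 between their deviations from the group means, in a range of −0.53 to 0.73. Pairs with different numbers were not compared, so whether the replicate numbers pair the samples is not known. With the peritubular list mean as a term 1 gene, Spry4, was called in knockout minus wild type averaged over treatments. Of the member differences, that term turned Fgfr1 to −0.077 and Fgfr2 to −0.20 (knockout minus wild type, PD0325901), Fgfr1 to 0.092, Fgfr2 to 0.067 and Fgfr3 to 0.019 (knockout minus wild type, vehicle), and Fgfr1 to 0.0075 (averaged over treatments). It also turned Fgfr1 to −0.051 and Fgfr2 to −0.0065 (PD0325901 minus vehicle, knockout), Fgfr1 to 0.12, Fgfr2 to 0.26, Fgfr3 to 0.014 and Frs3 to −0.033 (wild type), and the interaction of Fgfr1 to −0.17 and of Fgfr2 to −0.26. Near 0, the averaged genotype difference of Fgfr1 was 0.000256 with a pseudocount of 0.1, 0.015 with upper-quartile scaling and 0.000304 with voom, and Frs3 with PD0325901 in wild type was −0.0081 with that scaling and −0.015 with voom. The cause was not tested.

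With single libraries left out, Fgfr1 lay between −0.037 and 0.43 for knockout minus wild type under PD0325901, −0.11 and 0.12 averaged over treatments, −0.37 and 0.10 for PD0325901 minus vehicle in wild type, and −0.059 and 0.18 averaged over genotypes. In the same order Fgfr2 lay between −0.19 and 0.71, −0.31 and 0.15, −0.61 and 0.29, and −0.047 and 0.40. Fgfr3 lay between −0.17 and 0.091 for knockout minus wild type under vehicle and between −0.18 and 0.075 for PD0325901 minus vehicle in wild type. Fgfr4 lay between −0.19 and 0.27 for knockout minus wild type under PD0325901, −0.12 and 0.48 under vehicle, −0.080 and 0.23 averaged, −0.36 and 0.24 for PD0325901 minus vehicle in knockouts, −0.10 and 0.20 averaged, and −0.53 and 0.081 for the interaction. Frs2 lay between −0.0012 and 0.033 for PD0325901 minus vehicle in wild type. Frs3 lay between −0.084 and 0.16 for PD0325901 minus vehicle in knockouts, −0.10 and 0.064 in wild type, −0.041 and 0.081 averaged, and −0.088 and 0.15 for the interaction. For Spry4, knockout minus wild type lay between −0.96 and −0.57 under PD0325901, with the lowest possible exact p only without the fourth knockout library. Under vehicle it lay between −1.16 and −0.84, and the exact permutation p was 0.0571 without wild-type library 1, 2 or 3. The vehicle groups still did not overlap in those cases. Fgfr3 and Fgfr4, with as few as 183 and 78 estimated reads, are the members most limited by depth.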
